A study of Triticum aestivum with 12 samples.

Results

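Histones H3 and H4 are the core of the nucleosome, and the genes described here are the wheat gene models whose deposited description names either protein. The text search found 59 genes among the 25269 rows of the table, namely 16 described as histone H3, 6 as histone H3.2, 25 as histone H4 and 12 as histone H4 variant TH011. They lay on chromosome 1A (22 genes), 1B (25 genes) and 1D (12 genes), the chromosomes that the table's gene models cover, and all 59 carried the nucleosome term of the gene ontology. Histone genes elsewhere, including those of 1D past the table's last complete line, were not analysed here. RNA was sequenced from immature grain of bread wheat (Triticum aestivum) in 12 libraries, 3 in each of 4 groups. WT20 and WT30 were grain of the wild-type cultivar Zhoumai22 at 20 and 30 days after anthesis (flowering). HP20 and HP30 were grain of the mutant line HPm512, labelled with high antioxidant activity, at the same ages. The mutation, how it was made and whether replicates came from separate plants are not in the labels. A p-value here judges a group difference against the spread of libraries within groups only, and that spread may be technical.

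A nucleosome wraps DNA around an octamer in which a tetramer of H3 and H4 is placed first and dimers of H2A and H2B follow. Most H3 and H4 protein is made while DNA is copied in S phase, from many near-identical genes, whereas the H3.3 variant replaces H3 outside replication and centromeric H3 marks the centromere. In a cereal grain the endosperm first divides, then copies its DNA without dividing (endoreduplication), and fills with starch and storage protein. Plant histone transcripts carry poly(A) tails, so libraries that select for poly(A) can hold them.

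No row was described as H3.3 (0 of 25269), and the descriptions do not say which of the 16 H3 genes are of the replication type. The 3 rows described as centromeric histone 3 fall outside the search and serve below as a comparison. The gene models were short and mostly unbroken: of 54 histone genes with at least 100 counts in some library, 53 had a model as long as its genomic span (within 1%), against 11.3% of 5487 coding genes with that many counts. The exception was TraesCS1B02G245000, an H3.2 gene whose model of 1142 bases spanned 2275 bases. Many copies were neighbours, with 46 of the 59 in 14 clusters when genes up to 2 Mb apart were joined. The largest held 8 genes each. On 1A one ran from 541319198 to 543928828 with 5 H3 and 3 H4 genes, and on 1B one ran from 606839843 to 608462955 with 4 of each (the genome build is not given in the sources used here). For 25 genes the next coding gene along the chromosome was another H3 or H4 gene, and 13 of these neighbouring pairs joined an H3 to an H4. Because copies are near-identical, reads could be shared out between them by the authors' counting, and the value of any single copy is less certain than that of a class.

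Library totals recovered from the table were 59.3 M to 73.6 M reads, and the H3 and H4 genes together took 383 ± 112 RPM (reads relative to the library total) in WT20, 710 ± 139 in HP20, 48.4 ± 3.54 in WT30 and 22.7 ± 6.14 in HP30 (SD, n = 3). A few libraries stood apart. HP20 replicate 3 had the lowest HP20 level in 46 of the 54 tested histone genes, and HP20 replicate 1 the highest in 52. WT20 replicate 3 had the highest WT20 level in 52, and WT20 replicate 2 the lowest in 41. Annotated ribosomal RNA genes took 972 to 1257 RPM in WT20 replicates 2 and 3 and WT30 replicate 3, against 377 to 533 in the other 9 libraries. Of the 59 genes, 54 passed the filter for testing (FPKM, the read level scaled by gene length and library size, of at least 1 in 3 of 12 libraries). The 5 others were the H4 genes TraesCS1A02G403600, TraesCS1B02G097900 and TraesCS1B02G300800 and the H3 genes TraesCS1D02G233000 and TraesCS1D02G233200, with at most 35 counts in any library. The mean count of a tested histone gene was 464 in WT20, 879 in HP20, 63.9 in WT30 and 28.0 in HP30, so ratios at 30 days rest on far fewer reads.

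Summed over the 22 H3 genes, the level was highest in HP20, lower in WT20, and low in both groups at 30 days. The H3 sum was 277, 230 and 433 FPKM in WT20 replicates 1, 2 and 3, and 724, 600 and 480 in HP20. At 30 days it was 26.1, 30.1 and 28.7 FPKM in WT30, and 5.23, 19.6 and 7.18 in HP30. In FPKM no HP20 library lay below a WT20 library, and no HP30 library reached a WT30 library. HP30 replicate 2, however, held much more H3 than its 2 partners. The H4 sum over 37 genes was 292, 260 and 417 FPKM in WT20 and 693, 575 and 468 in HP20. At 30 days it was 44.7, 45.7 and 51.9 FPKM in WT30 and 22.7, 27.9 and 22.2 in HP30. In FPKM these groups did not overlap either. Between 20 and 30 days the mean H3 sum went from 313 ± 106 to 28.3 ± 2.03 FPKM in wild type, a ratio of 11.1, and from 601 ± 122 to 10.7 ± 7.78 in the mutant, a ratio of 56.4. The mean H4 sum went from 323 ± 83.2 to 47.4 ± 3.93 in wild type, a ratio of 6.81, and from 579 ± 112 to 24.3 ± 3.15 in the mutant, a ratio of 23.8. In whole grain, fewer cells of a type and less RNA per cell cannot be told apart. An FPKM ratio uses library totals alone. With composition factors (TMM) applied the H3 sums were 331, 511, 25.3 and 13.4 in WT20, HP20, WT30 and HP30. The mutant thus stood closer to wild type at both ages. With these factors WT20 replicate 3 lay above HP20 replicate 3 in both the H3 and the H4 sum. HP30 replicate 2 then lay above WT30 replicate 1 in the H3 sum, while the H4 sums stayed separate at 30 days.

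**Figure D1:**
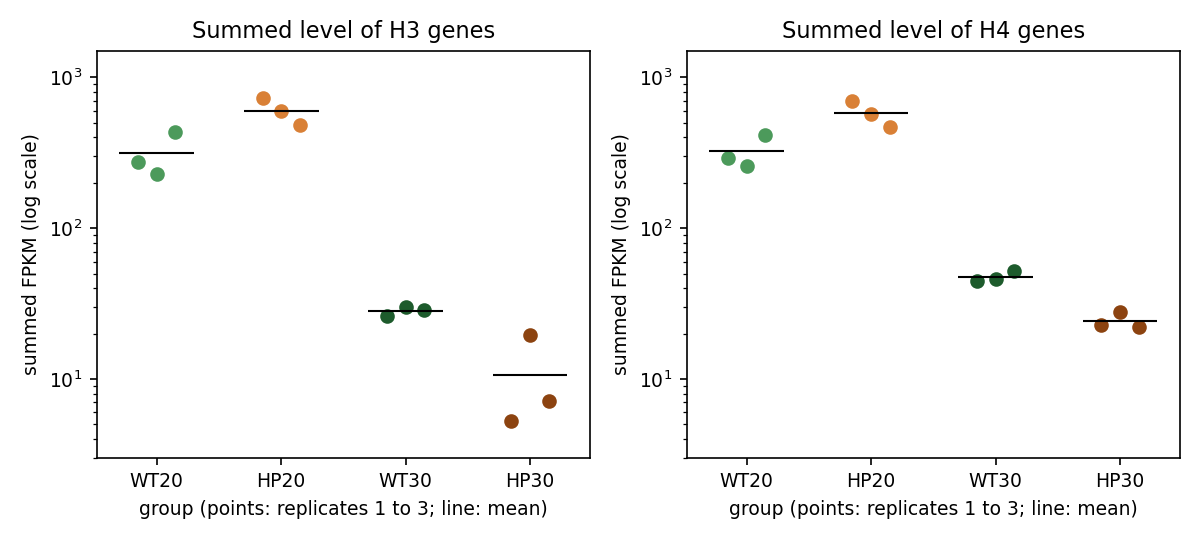
Summed FPKM (log scale) of the 22 H3 genes and of the 37 H4 genes in each of the 12 libraries; points are replicates 1 to 3 of a group and lines are group means. In both panels the 3 HP20 points lie above the 3 WT20 points and the 3 HP30 points lie below the 3 WT30 points, with H3 in HP30 spread from 5.23 to 19.6.

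The H3 sum relative to the full H4 sum was lower at 30 days than at 20 days. The ratio of the sums was 0.956 ± 0.0765 in WT20 and 1.04 ± 0.0115 in HP20, so both histones stood at nearly the same summed level. It was 0.599 ± 0.0546 in WT30 and 0.418 ± 0.250 in HP30 (SD, n = 3), and all 6 libraries at 30 days lay below all 6 at 20 days. The H4 sum in this ratio includes the TH011 genes TraesCS1A02G201300 and TraesCS1D02G204700. They held 9.37% of it in WT20 and 7.49% in HP20, but 35.5% in WT30 and 36.1% in HP30. The H3 to H4 ratio without them was not computed. Leaving them out would raise the ratio more at 30 days than at 20 days. WT30 replicate 2, for example, had a ratio of 0.659 with 36.2% of the H4 sum in these genes. WT20 replicate 2 had a ratio of 0.884 with 9.66%, and would then lie below that WT30 library. The separation of the ages thus holds only for the full sums. The ratio between ages also differed by class. The 12 TH011 genes went from 101 ± 25.1 to 22.7 ± 2.06 FPKM in wild type, a ratio of 4.46, whereas the 25 other H4 genes went from 222 ± 58.1 to 24.7 ± 1.95, a ratio of 8.97. In the mutant these ratios were 15.6 and 30.7. The sums of the TH011 class at 30 days lay mostly in TraesCS1A02G201300 and TraesCS1D02G204700, described below, and for the median gene the order was the other way: the median TH011 gene kept 7.65% of its FPKM in wild type and 1.68% in the mutant, and the median of the other tested H4 genes kept 8.85% and 2.40%. The 16 H3 genes and the 6 H3.2 genes had wild-type ratios of 11.3 and 10.6 and mutant ratios of 52.0 and 66.8.

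Among single genes the level at 20 days was spread over many copies. In HP20, 42 of the 54 tested genes had a mean of at least 10 FPKM, against 27 in WT20, 1 in WT30 and 0 in HP30. The most abundant copy by its mean over the 12 libraries was the H3 gene TraesCS1B02G378400 (1B:610560764-610561174, + strand), at 35.2, 31.1 and 63.2 FPKM in WT20 and 74.8, 64.3 and 57.4 in HP20. It stood at 4.32, 4.20 and 3.07 in WT30 and at 0.621, 3.38 and 0.184 in HP30. Its WT20 and HP20 libraries overlapped, and HP30 replicate 2 stood near the WT30 level.

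**Figure D2:**
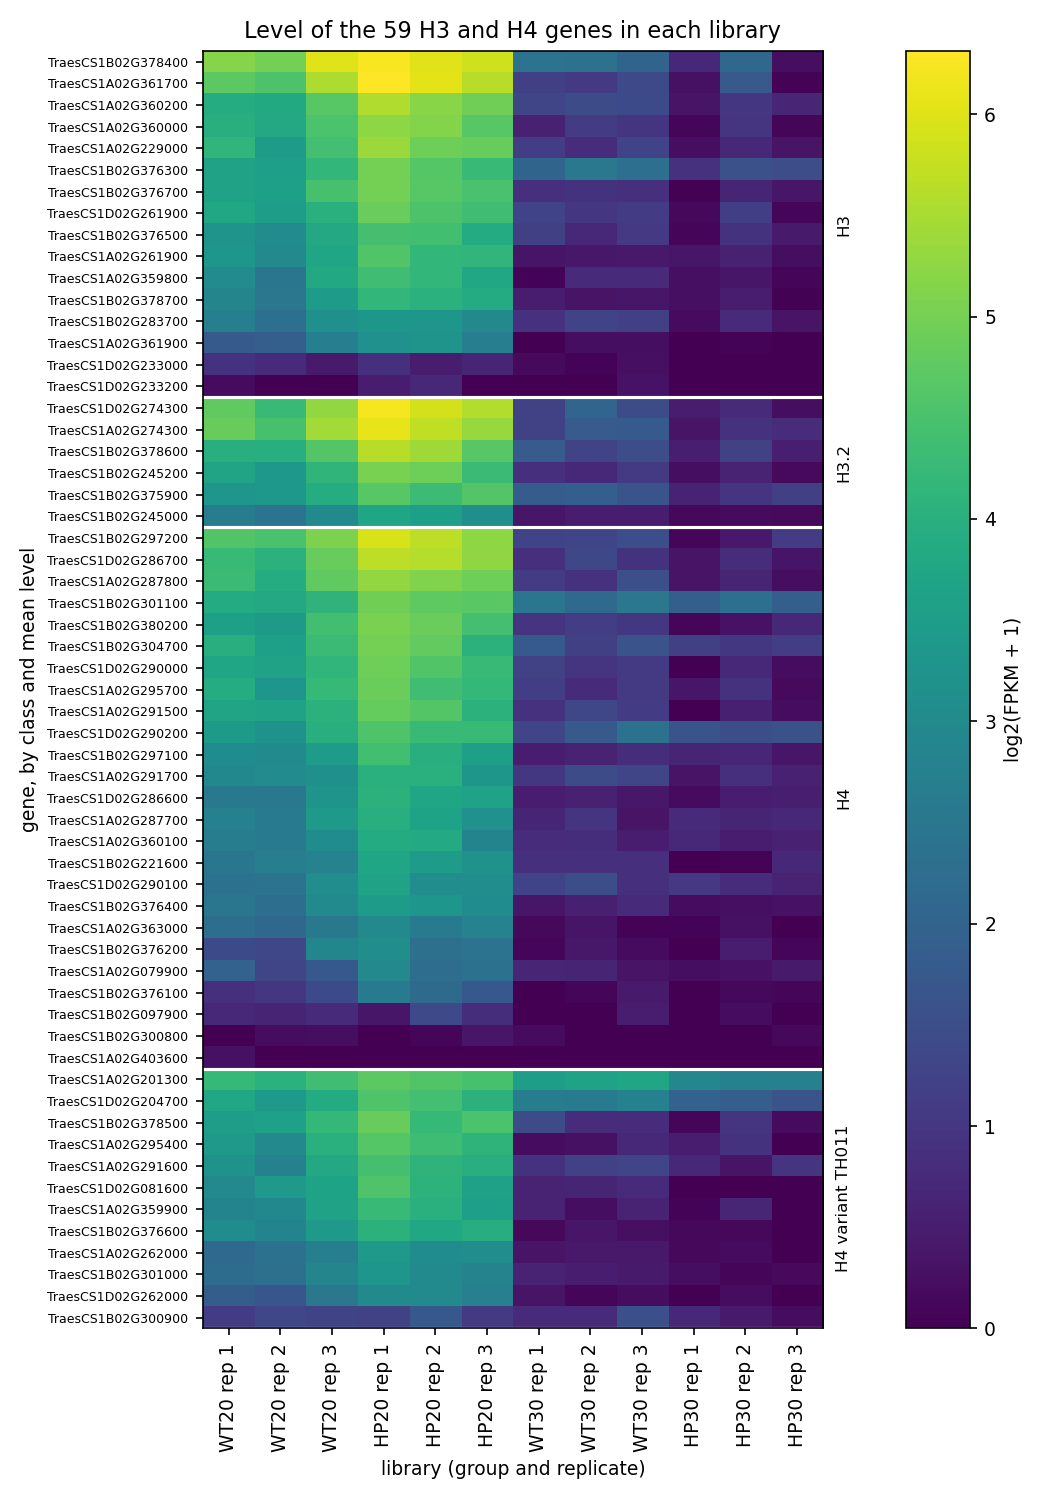
Level of each of the 59 H3 and H4 genes as log2(FPKM + 1) (colour) in each of the 12 libraries (columns), with genes in rows by class and, within a class, by mean level. The 6 columns at 20 days are brighter than the 6 at 30 days for nearly every gene, and the TH011 genes TraesCS1A02G201300 and TraesCS1D02G204700 are the brightest rows in WT30.

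Almost every tested copy fell from 20 to 30 days in wild type. Of 54 genes 53 fell and 0 rose (edgeR's quasi-likelihood test, Benjamini-Hochberg adjusted p under 0.05), where 31.9% of all 5723 tested genes fell and 31.8% rose. The median log2 fold change of the 54 was -3.86, a 14.5-fold lower level, against -0.0095 over all tested genes. All 14 H3, all 6 H3.2 and all 22 H4 genes tested fell, with medians of -4.18, -4.00 and -3.71, and so did 11 of 12 TH011 genes, with a median of -3.93. Since 28 of the 54 had a mean of at least 1 FPKM in WT30, many passed the filter through their level at 20 days, and this count carries that choice. Without a filter 53 genes were called lower too.

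The steepest falls in wild type belonged to 2 TH011 genes. TraesCS1B02G376600 (1B:608335179-608335695, - strand) stood at 7.35, 6.20 and 9.54 FPKM in WT20 and at 0.106, 0.297 and 0.203 in WT30, which rest on 4 to 12 counts. Its log2 fold change was -5.37 (SE 0.432, adjusted p = 1.98e-07). TraesCS1A02G295400 (1A:490418247-490418875, + strand) stood at 9.74, 6.87 and 15.1 FPKM in WT20 and at 0.162, 0.222 and 0.638 in WT30 (log2 fold change -5.13, SE 0.668, adjusted p = 1.67e-05). No library at 30 days came near one at 20 days for either gene.

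The gene that did not pass was also a TH011 copy, TraesCS1B02G300900 (1B:521740741-521741468, + strand). It stood at 1.18, 1.56 and 1.46 FPKM in WT20 and at 0.697, 0.685 and 1.91 in WT30, with a log2 fold change of -0.61 (SE 0.498, adjusted p = 0.305). Its groups overlapped, through WT30 replicate 3, one of the libraries rich in ribosomal RNA. Its neighbour TraesCS1B02G301000, also TH011, fell by 3.64 on the log2 scale (SE 0.299, adjusted p = 2.33e-07), so copies within the same cluster on 1B differed widely.

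In the mutant all 54 tested genes fell from 20 to 30 days, where 27.9% of all tested genes fell and 29.9% rose. The median log2 fold change was -5.27, a 38.6-fold lower level, against 0.076 over all tested genes; without HP30 replicate 2 it was -5.98, and over fits without 1 library it ranged up to -4.93. The H3, H3.2, H4 and TH011 medians were -5.45, -5.77, -4.80 and -5.27. In HP30 the mean reached 1 FPKM for 7 of the 54 genes, so most passed the filter through other groups. Without a filter 55 genes were called lower.

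One TH011 copy fell to no counts at all. TraesCS1D02G081600 (1D:63681763-63682074, - strand) had 505, 345 and 208 counts in HP20 replicates 1, 2 and 3 (23.0, 16.0 and 11.3 FPKM) and 0 in each HP30 library. Taking 3 counts per library as the floor, it was at least 117-fold lower than in HP20. In wild type it was not lost: it had 142, 188 and 239 counts in WT20 (6.78, 9.53 and 11.6 FPKM) and 12, 14 and 15 in WT30 (0.544, 0.578 and 0.671 FPKM). The H3 gene TraesCS1A02G361900 (1A:542358394-542359124, + strand) came next, at 8.14, 8.64 and 5.52 FPKM in HP20 and at 0, 0.0397 and 0 in HP30, the middle value from 2 counts. Its log2 fold change was -8.35 (SE 0.866, adjusted p = 3.1e-06) and its size depends on those few reads.

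**Figure D3:**
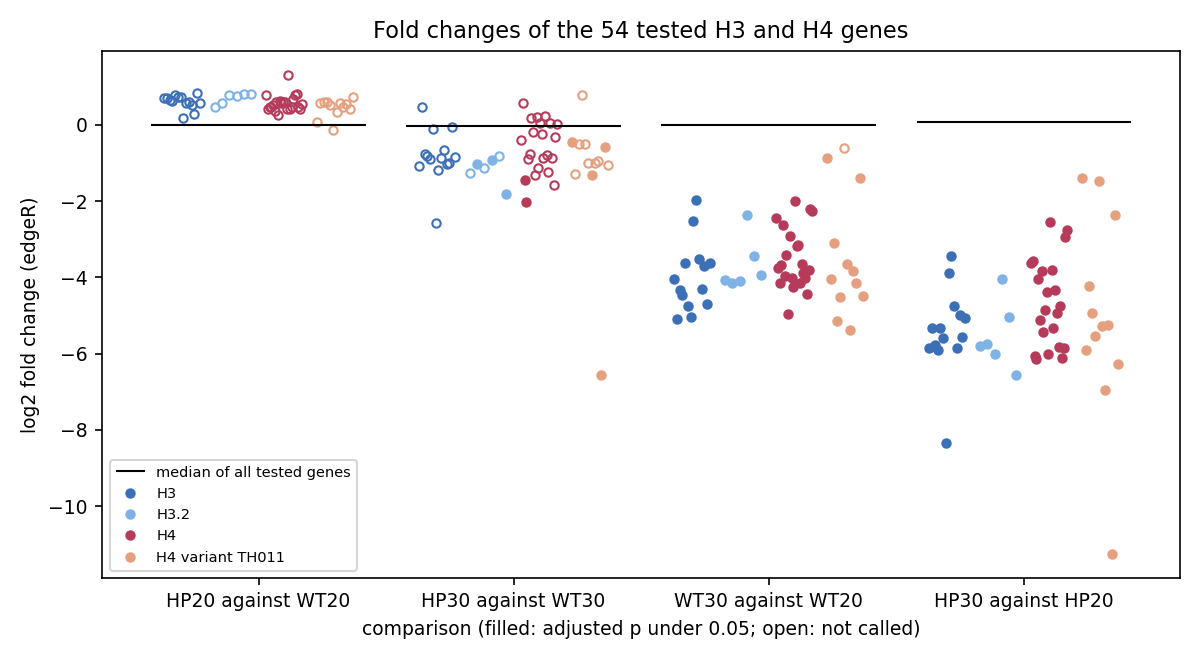
Log2 fold change (edgeR) of each of the 54 tested H3 and H4 genes in 4 comparisons, by class; filled points have an adjusted p under 0.05, open points do not, and black lines mark the median of all 5723 tested genes. Points lie mostly above the line in HP20 against WT20 with none filled, and far below it in both time comparisons; the lowest TH011 point in the HP30 comparisons, TraesCS1D02G081600, rests on 0 counts in HP30 and its fitted size is not a bound.

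How much each copy kept differed between copies. The mean FPKM at 30 days was 8.03% of that at 20 days for the median gene in wild type (range 2.62% to 78.2% over the 54 tested genes) and 1.71% in the mutant (range 0% to 26.0%). In wild type 10 genes kept over 20% and 36 kept under 10%, and in the mutant 2 kept over 20% and 49 kept under 10%. These percentages come from FPKM, which uses library totals alone. With that scaling the median log2 fold change over time of all tested genes was 0.23 in wild type and -0.46 in the mutant. A typical tested gene thus also kept less in the mutant. With TMM factors 2 of the 54 genes fell less in the mutant than in wild type. The genes that kept most were the TH011 copies TraesCS1B02G300900 (78.2% in wild type, 24.3% in the mutant), TraesCS1A02G201300 (64.4% and 26.0%) and TraesCS1D02G204700 (45.3% and 13.2%). They were followed by the H3 gene TraesCS1B02G376300 (29.9% and 6.28%) and the H4 gene TraesCS1B02G301100 (29.5% and 11.7%). TraesCS1B02G300900, TraesCS1B02G376300 and TraesCS1B02G301100 are named because of these values.

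**Figure D4:**
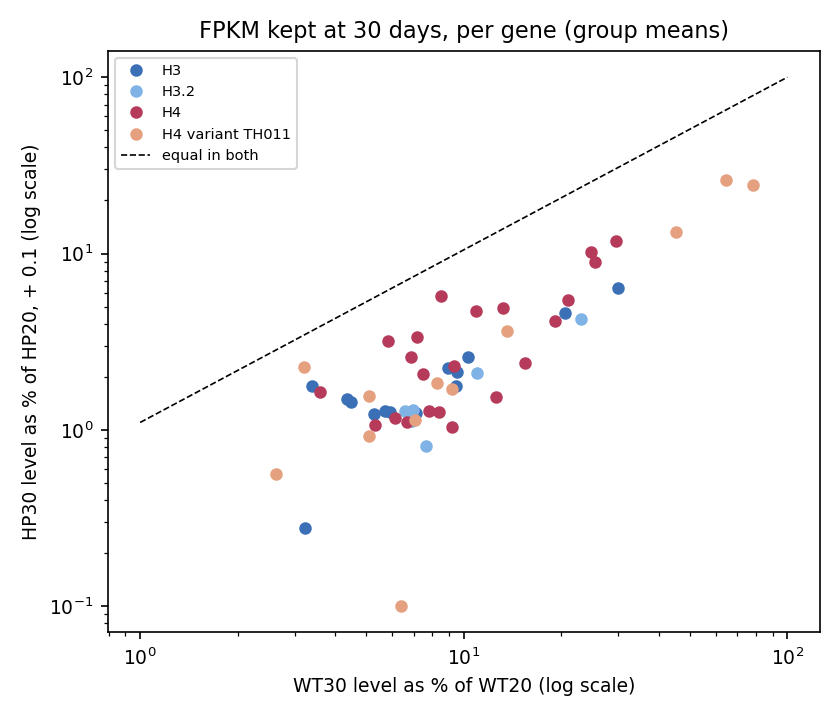
Mean FPKM at 30 days as a percent of that at 20 days, for each of the 54 tested genes, in wild type (horizontal) and in the mutant (vertical, plus 0.1), both on log scales; colours are classes and the dashed line marks equal shares. The points lie below the line, with 3 TH011 genes farthest to the right at 45.3%, 64.4% and 78.2% kept in wild type. FPKM uses library totals alone, and with that scaling the median tested gene of the whole table also kept less in the mutant.

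TraesCS1A02G201300 (1A:362209635-362210289, - strand) was the most abundant H3 or H4 gene in both groups at 30 days. It stood at 17.9, 15.4 and 19.8 FPKM in WT20, at 25.3, 23.4 and 21.1 in HP20, at 10.7, 11.4 and 12.2 in WT30 and at 6.52, 5.89 and 5.77 in HP30. In FPKM each group was separate from the others and tight. With TMM factors WT20 and HP20 overlapped, and the log2 fold change between them was 0.08. It fell by 0.88 on the log2 scale in wild type (SE 0.115, adjusted p = 1.76e-05) and by 1.40 in the mutant (SE 0.118, adjusted p = 4.79e-07). With libraries scaled to equal sums of FPKM the wild-type value turned to 0.18; that scaling moves the median of all tested genes to 1.04.

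TraesCS1D02G204700 (1D:289782070-289782940, - strand) followed the same order of groups. It stood at 12.5, 9.67 and 13.8 FPKM in WT20, 23.0, 20.5 and 15.7 in HP20, 5.26, 5.17 and 5.84 in WT30, and 2.97, 2.79 and 2.06 in HP30. It fell by 1.39 in wild type (SE 0.167, adjusted p = 8.17e-06) and by 2.37 in the mutant (SE 0.175, adjusted p = 1.55e-07). Together these 2 genes made up 9.37% ± 1.21 of the H4 sum in WT20 and 7.49% ± 0.463 in HP20, and 35.5% ± 0.765 in WT30 and 36.1% ± 5.42 in HP30 (SD, n = 3). Within H3 the share of TraesCS1B02G376300 and TraesCS1B02G375900 went from 7.77% ± 0.844 in WT20 to 22.5% ± 1.92 in WT30, and from 7.90% ± 0.844 in HP20 to 28.4% ± 14.0 in HP30, where single libraries ranged from 14.8% to 42.8%. Both sets were chosen for their high share at 30 days, so the shares are a description.

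**Figure D5:**
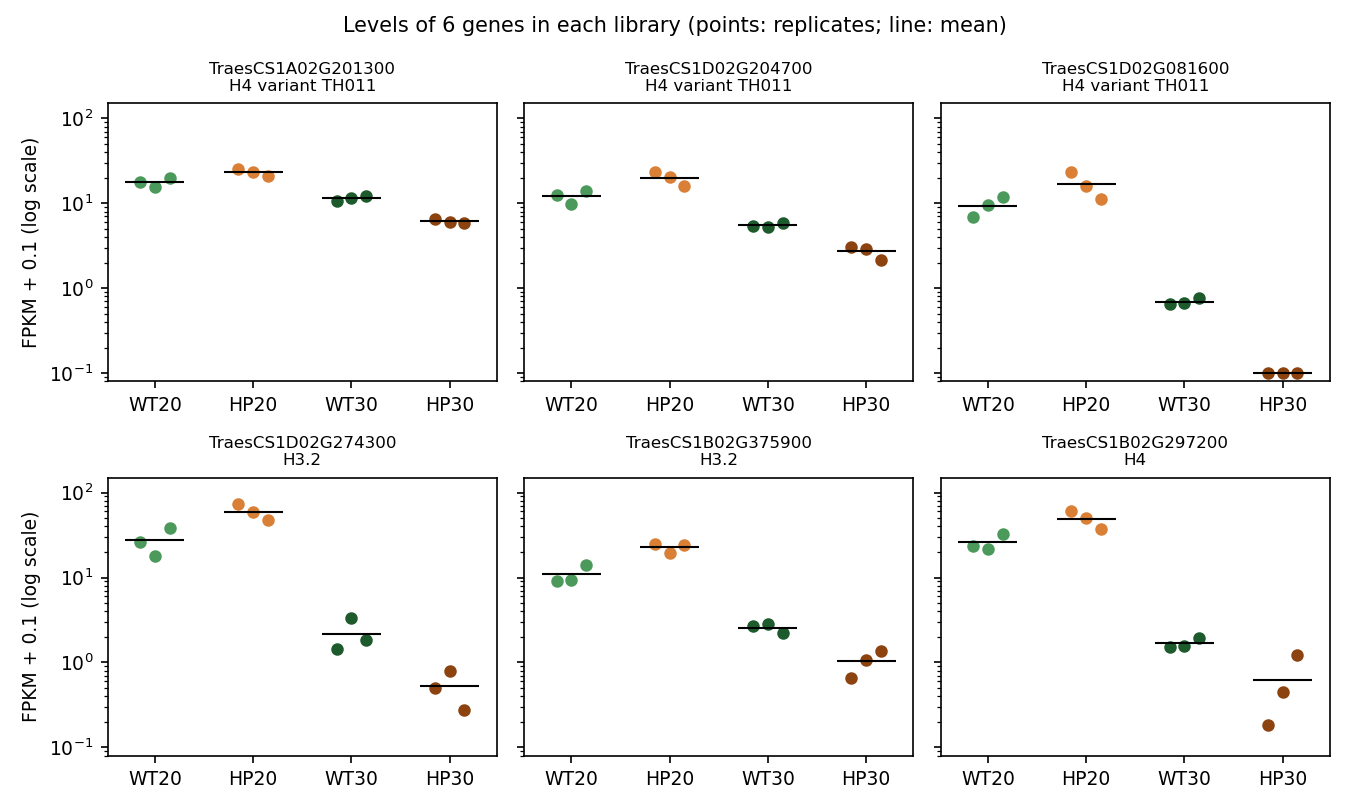
FPKM + 0.1 (log scale) of 6 genes in each library; points are replicates 1 to 3 of a group and lines are group means. TraesCS1A02G201300 and TraesCS1D02G204700 change least between ages among these 6, TraesCS1D02G081600 sits at 0 (drawn at 0.1) in the 3 HP30 libraries, and the 3 others are highest in HP20 and lowest in HP30.

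At 20 days the comparison of the mutant with wild type called 0 of the 54 genes, where 0.419% of all tested genes were called higher and 1.87% lower. At an unadjusted p under 0.05, 14 of the 54 were higher and 0 lower, beside 9.61% and 11.9% of all tested genes. The sign was nearly uniform: 53 of 54 log2 fold changes were positive, with a median of 0.58, a 1.49-fold higher level, against 0.011 over all tested genes. The medians were 0.65 for H3, 0.77 for H3.2, 0.53 for H4 and 0.53 for TH011. In FPKM, all 3 HP20 libraries lay above all 3 WT20 libraries for 39 of the 54 genes and below them for 0, beside 38.4% and 4.30% of all tested genes. In TMM-scaled counts they did so for 17, beside 11.7% of all tested genes.

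The number of calls at 20 days depended on the scaling and the tool. DESeq2 called 3 of the 54 higher, beside 3.77% of all tested genes. EdgeR on library totals alone called 20, beside 24.3%, and limma on log2(FPKM + 1) called 44, beside 27.1%; the median of all tested genes itself lay at 0.32 and 0.23 in these fits. Without HP20 replicate 3 all 54 values were positive, with a median of 0.67, and 0 were called. The median was 0.42 without HP20 replicate 1 and 0.44 without WT20 replicate 2. It was 0.78 without WT20 replicate 3. These fits called 0 of the 54 as well.

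Among the H3 genes, TraesCS1A02G361700 (1A:542170382-542170792, + strand) stood at 25.3, 22.3 and 45.0 FPKM in WT20 and 78.5, 65.2 and 48.9 in HP20. In FPKM the groups did not overlap, but WT20 replicate 3 and HP20 replicate 3 stood close, and TMM factors reversed the order of these libraries. The log2 fold change was 0.74 (SE 0.467, adjusted p = 0.387). TraesCS1A02G360200 (1A:541462716-541463412, - strand), in the same cluster on 1A, stood at 14.1, 13.4 and 24.4 in WT20 and 46.4, 35.6 and 29.8 in HP20 (log2 fold change 0.80, SE 0.275, adjusted p = 0.126). TraesCS1B02G378400 had the smaller value of 0.29 (SE 0.435, adjusted p = 0.759).

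None of the 3 leading H3.2 genes passed the test. TraesCS1D02G274300 (1D:369925516-369925926, - strand) stood at 26.1, 18.0 and 37.9 FPKM in WT20 and 73.5, 58.8 and 46.9 in HP20, with a log2 fold change of 0.81 (SE 0.307, adjusted p = 0.153). TraesCS1A02G274300 (1A:468598785-468599195, - strand) stood at 28.0, 21.4 and 42.2 in WT20 and 66.3, 51.2 and 39.5 in HP20; these groups overlapped. TraesCS1B02G378600 (1B:610965577-610965987, + strand) stood at 14.4, 14.7 and 23.7 in WT20 and 49.0, 41.5 and 24.7 in HP20, where replicate 3 lay just above the highest WT20 library. The last 2 had log2 fold changes of 0.46 (SE 0.284, adjusted p = 0.374) and 0.81 (SE 0.325, adjusted p = 0.174).

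The leading H4 genes resembled them. TraesCS1B02G297200 (1B:516971105-516971724, - strand) stood at 23.1, 21.8 and 32.6 FPKM in WT20 and 59.9, 50.3 and 37.0 in HP20 (log2 fold change 0.61, SE 0.319, adjusted p = 0.292). TraesCS1D02G286700 (1D:384846538-384847143, - strand) stood at 18.3, 15.7 and 28.0 in WT20 and 50.6, 47.7 and 37.7 in HP20 (0.82, SE 0.264, adjusted p = 0.106). TraesCS1A02G287800 (1A:485012383-485012973, - strand) stood at 18.8, 14.0 and 26.1 in WT20 and 37.9, 33.6 and 29.1 in HP20 (0.46, SE 0.263, adjusted p = 0.338). In FPKM the HP20 libraries lay above the WT20 libraries in all 3, by a margin smaller than the range within either group. With TMM factors the groups overlapped for TraesCS1A02G287800. The smallest adjusted p of any member was 0.0808, for the H4 gene TraesCS1B02G301100, at 13.7, 13.1 and 16.3 FPKM in WT20 and 29.6, 26.1 and 25.1 in HP20 (log2 fold change 0.60, SE 0.170).

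Among the leading TH011 genes none passed either. TraesCS1A02G201300 had a log2 fold change of 0.08 (SE 0.113, adjusted p = 0.738) and TraesCS1D02G204700 one of 0.41 (SE 0.161, adjusted p = 0.169). TraesCS1B02G378500 (1B:610893263-610893574, + strand), which lies between H3 and H3.2 genes on 1B, stood at 10.6, 11.2 and 17.5 FPKM in WT20 and 27.6, 17.8 and 22.2 in HP20 (0.48, SE 0.461, adjusted p = 0.603).

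At 30 days the sign was turned around. Of the 54 genes 9 were called lower in the mutant and 0 higher, where 9.30% of all tested genes were called lower and 13.6% higher. The median log2 fold change was -0.86, a 1.82-fold lower level, against -0.034 over all tested genes, and 45 of 54 values were negative. The calls fell on 3 of 6 H3.2, 2 of 22 H4, 4 of 12 TH011 and 0 of 14 H3 genes. In TMM-scaled counts all 3 HP30 libraries lay below all 3 WT30 libraries for 15 of 54 genes, beside 20.8% of all tested genes, and in FPKM for 28, beside 54.8%. The result rested on single libraries: without HP30 replicate 2 the median was -1.46 and 27 genes were called lower, beside 8.28% of all tested genes, and without HP30 replicate 1 they were -0.57 and 5, beside 7.71%. The count was 4 without WT30 replicate 2 (6.06% of all tested genes), 2 with both 30-day groups fitted alone (10.2%) and 18 with DESeq2 (11.9%).

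TraesCS1D02G081600 had the smallest adjusted p at 30 days (0.000631), and with the floor of 3 counts it was at least 4.18-fold lower in HP30 than in WT30. TraesCS1A02G201300 was called too, lower by a small and tight margin (log2 fold change -0.44, SE 0.117, adjusted p = 0.0154). These were the 2 calls kept in all 23 alternatives tried.

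Among H3.2 genes TraesCS1D02G274300 stood at 1.33, 3.2 and 1.75 FPKM in WT30 and 0.403, 0.696 and 0.172 in HP30 (log2 fold change -1.80, SE 0.504, adjusted p = 0.0203). TraesCS1B02G375900 (1B:606839843-606840545, + strand), at the start of the cluster of 8 genes on 1B, stood at 2.59, 2.71 and 2.13 in WT30 and 0.556, 0.959 and 1.28 in HP30 (-0.93, SE 0.292, adjusted p = 0.0347). TraesCS1B02G245000 (1B:434409017-434411291, + strand) stood at 0.297, 0.390 and 0.413 in WT30 and 0.104, 0.139 and 0.124 in HP30 (-1.03, SE 0.313, adjusted p = 0.0303). The WT30 and HP30 libraries of these 3 genes did not overlap, but levels below 1 FPKM rest on 34 counts or fewer for TraesCS1B02G245000.

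Among the H4 genes 2 were called. TraesCS1A02G287800 stood at 1.17, 0.859 and 1.9 FPKM in WT30 and 0.260, 0.562 and 0.185 in HP30 (log2 fold change -1.45, SE 0.412, adjusted p = 0.0220). TraesCS1A02G291500 (1A:487568658-487569222, + strand) stood at 0.856, 1.53 and 1.18 in WT30 and 0, 0.461 and 0.164 in HP30 (-2.01, SE 0.579, adjusted p = 0.0235). Neither gene overlapped between groups. Among the TH011 genes TraesCS1B02G301000 (1B:521766877-521767839, + strand) stood at 0.528, 0.387 and 0.381 in WT30 and 0.167, 0.0736 and 0.113 in HP30 (-1.31, SE 0.364, adjusted p = 0.0199). TraesCS1D02G204700 was called at a log2 fold change of -0.58 (SE 0.173, adjusted p = 0.0276).

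None of the H3 class passed, and its leading genes varied widely among the HP30 libraries. TraesCS1A02G361700 stood at 1.29, 1.11 and 1.64 FPKM in WT30 and 0.224, 2.41 and 0.0509 in HP30, so HP30 replicate 2 exceeded every WT30 library and the others lay far below (log2 fold change -0.11, SE 0.724, adjusted p = 0.938). TraesCS1A02G360200 stood at 1.49, 1.76 and 1.68 in WT30 and 0.267, 0.997 and 0.602 in HP30, without overlap (-0.91, SE 0.382, adjusted p = 0.108). HP30 replicate 2 had the highest HP30 level in 35 of the 54 genes.

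The change of the cultivar difference from 20 to 30 days was tested as an interaction, a test of whether the mutant's fall exceeded that of wild type. It was called for 19 of the 54 genes, all with a steeper fall in the mutant, where 10.9% of all tested genes had a lower and 13.1% a higher value. The median was -1.43, against -0.021 over all tested genes, and 52 of 54 values were negative. By class the calls covered 6 of 6 H3.2, 6 of 22 H4, 4 of 12 TH011 and 3 of 14 H3 genes, with medians of -1.71, -1.16, -1.27 and -1.43. The count ranged from 10 without HP20 replicate 1, beside 8.04% of all tested genes, to 31 without HP30 replicate 2, beside 10.9% and with a median of -2.05. It was 8 without the 3 libraries rich in ribosomal RNA, beside 7.11%. Histones H2A and H2B and genes of DNA replication also had lower calls for this change, as given below. The steeper fall was thus not particular to H3 and H4.

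TraesCS1D02G274300 (H3.2) had an interaction of -2.62 (SE 0.589, adjusted p = 0.00603). It fell by 3.93 on the log2 scale in wild type and by 6.55 in the mutant. The H4 gene TraesCS1B02G380200 (1B:613231745-613232442, + strand) stood at 11.1, 9.82 and 20.1 FPKM in WT20, 32.2, 28.3 and 21.0 in HP20, 0.957, 1.20 and 1.05 in WT30, and 0.0763, 0.245 and 0.640 in HP30 (-1.92, SE 0.594, adjusted p = 0.0322). In FPKM it was higher in every HP20 library than in any WT20 library, as were 38.4% of all tested genes. At 30 days it was lower in every HP30 library than in any WT30 library. With TMM factors its WT20 replicate 3 lay above its HP20 replicate 3. Its interaction call was lost in 8 of 22 alternatives.

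The H3.2 gene TraesCS1B02G245200 (1B:434422573-434423258, - strand) stood at 11.8, 9.32 and 16.4 FPKM in WT20, 32.0, 29.5 and 18.7 in HP20, 0.840, 0.633 and 1.11 in WT30, and 0.173, 0.527 and 0.124 in HP30 (-1.9, SE 0.535, adjusted p = 0.0202). The H3 gene TraesCS1A02G229000 (1A:400974762-400975411, - strand) stood at 16.9, 10.3 and 20.5 in WT20, 40.0, 29.2 and 27.6 in HP20, 1.22, 0.754 and 1.43 in WT30, and 0.178, 0.666 and 0.262 in HP30 (-1.79, SE 0.537, adjusted p = 0.0277). In FPKM both crossed over between ages without overlap of the groups at either. At 30 days 54.8% of all tested genes were likewise lower in HP30 without overlap in FPKM. With TMM factors HP30 replicate 2 lay above WT30 replicate 2 in both genes, so the groups overlapped at 30 days. By contrast TraesCS1A02G295400 (TH011) had a positive interaction of 0.19 (SE 0.898, adjusted p = 0.903). It stood at 23.9, 19.5 and 16.4 FPKM in HP20 and at 0.414, 0.886 and 0 in HP30, so its HP30 libraries ran from no count to above every WT30 library, and its sign turned under several alternatives.

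Copies on the 3 chromosomes had similar values. Over the tested genes of 1A, 1B and 1D the median log2 fold change in HP20 against WT20 was 0.60, 0.58 and 0.56, and in HP30 against WT30 it was -0.77, -0.95 and -0.86. From 20 to 30 days the wild-type medians were -4.05, -3.66 and -3.86 and the mutant medians -5.42, -5.0 and -5.45. In the cluster of 8 on 1A the wild-type values ran from -5.04 to -3.41, and in that of 8 on 1B from -5.37 to -1.98. Over all tested H3 and H4 genes of 1A they ran from -5.13 to -0.88, and of 1B from -5.37 to -0.61. The ranges are descriptions, with no test of position.

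The partners of H3 and H4 in the nucleosome, H2A and H2B, went the same way for most copies. Of 31 tested H2A and H2B genes 28 fell and 2 rose in wild type, beside 31.9% and 31.8% of all tested genes. In the mutant 28 fell and 1 rose, beside 27.9% and 29.9%. The median log2 fold changes were -3.53 and -4.77. An H2A gene with a rise in wild type, TraesCS1B02G296300, went from 79.4 ± 2.44 to 131 ± 12.9 FPKM. Between cultivars 0 of 31 were called at 20 days, beside 0.419% of all tested genes called higher and 1.87% lower. At an unadjusted p under 0.05, 7 were higher, beside 9.61%. At 30 days 4 were called lower, beside 9.30%. For the change of the cultivar difference 6 of 31 were called lower and 0 higher, beside 10.9% and 13.1% of all tested genes. The 3 centromeric H3 genes fell less: 1 of 3 fell in wild type and 3 of 3 in the mutant, with log2 fold changes of -1.56 to -0.44 and -2.12 to -1.15. Their summed level was 6.06 ± 2.14 FPKM in WT20, 11.4 ± 0.902 in HP20, 3.96 ± 0.337 in WT30 and 2.65 ± 0.462 in HP30, and 0 of 3 were called between cultivars at either age.

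Genes of DNA replication and cell division were counted in the same way. Of all tested genes 31.9% fell and 31.8% rose in wild type, and 27.9% fell and 29.9% rose in the mutant. The MCM proteins, the helicase that opens DNA at replication origins, fell in 9 of 9 genes in wild type (median -2.25) and in 9 of 9 in the mutant (median -3.10). At 20 days 1 of 9 MCM genes was called higher in the mutant, beside 0.419% of all tested genes. At an unadjusted p under 0.05, 8 of 9 were higher and 0 lower, beside 9.61% and 11.9%. At 30 days 1 was called higher and 2 lower, beside 13.6% and 9.30%. Of 12 other replication factors (such as replication protein A, which binds single-stranded DNA) 5 rose and 5 fell in wild type, and 3 rose and 8 fell in the mutant. Cyclins and kinesins, which act in cell division, fell in 7 and rose in 2 of 11 genes in wild type and fell in 8 and rose in 0 in the mutant. The 3 histone chaperone genes rose in wild type; TraesCS1D02G121900, a subunit of FACT, which moves nucleosomes ahead of polymerases, went from 13.3 ± 0.916 to 27.0 ± 1.81 FPKM. In the mutant 2 of the 3 rose. Of 4 histone-modifying enzymes 1 rose and 1 fell in wild type, and 1 rose in the mutant. The change of the cultivar difference was called lower for 4 of 9 MCM genes and 6 of 12 other replication factors. Lower calls also covered 3 of 11 cyclins and kinesins, 2 of 3 histone chaperones and 0 of 4 histone-modifying enzymes. In each of these lists 0 were called higher. Of all tested genes 10.9% were called lower and 13.1% higher for this change.

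Summed levels of tissue marker genes also differed between groups. The summed FPKM of 12 starchy endosperm genes (gliadins, glutenins, purothionins) was 45583 ± 441 in WT20, 29935 ± 9081 in HP20, 5913 ± 58.1 in WT30 and 32526 ± 3285 in HP30. Within HP20, replicate 3 combined the lowest histone sums with the highest of these, 39460 FPKM. Replicate 1 had the highest histone sums and 28972 FPKM, while the lowest endosperm sum, 21374, was in replicate 2. Within WT20, replicate 3 had the highest histone sums but an endosperm sum of 45426, between 45242 and 46080 in its partners. The 6 embryo genes summed to 66.2 ± 13.2, 90.3 ± 57.1, 2886 ± 91.3 and 1788 ± 652 FPKM in WT20, HP20, WT30 and HP30. HP20 replicate 3 had the lowest embryo sum of its group, 26.4 FPKM. In the same order of groups, the 2 globulin 1 genes summed to 2595 ± 87.9, 1500 ± 326, 422 ± 18.8 and 1642 ± 329. They were listed as aleurone markers, a tissue that their description does not name. The 24 green pericarp genes summed to at most 11.7 FPKM in any library, and 8 of them were at 0 in all. From WT20 to WT30, 11 of 11 tested endosperm genes fell and 6 of 6 embryo genes rose. Of all tested genes 31.9% fell and 31.8% rose. From HP20 to HP30, 5 of 11 endosperm genes rose, 0 fell, and 6 of 6 embryo genes rose, where 29.9% of all tested genes rose and 27.9% fell. The part of these shifts in the histone results was not tested.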

How the data were processed

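RNA sequencing was done on immature grain in 12 libraries, 3 per group, with groups taken from the labels. Per the labels' protocols, Trizol was used for RNA and an Illumina TruSeq RNA kit for the libraries; per the submitters' processing notes, cutadapt 1.9 and FastQC were used. The aligner, counter, strand setting and build were not given in the sources used here. One table was deposited, with whole-number read counts per gene and library. The FPKM values deposited beside them scale these counts by gene length and by the reads of the whole library; genes with a count of 0 hold 1e-04 there, which was set to 0. The final one of its 25270 lines is incomplete and was dropped. Of the columns with values per sample 0 were unmapped.

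Histone genes were found by their description; KEGG entries added 0 rows, and 0 of the 59 matched the reference gene table. The genes, the other gene lists and the rule for named genes were chosen with earlier results of these data known. By that rule each class gave its 3 genes of highest mean FPKM, each cultivar comparison and the interaction up to 8 called genes in each direction, and each time comparison its 2 steepest falls. Lists were matched on description or ontology; linker histone H1 matched 0 rows. The list of DNA replication genes by ontology had 30 tested genes. From WT20 to WT30, 15 were lower and 11 higher, beside 31.9% and 31.8% of all tested genes. From HP20 to HP30, 18 were lower and 7 higher, beside 27.9% and 29.9%. For the change of the cultivar difference 12 were lower and 0 higher, beside 10.9% and 13.1%. At 20 days 15 were higher in the mutant and 0 lower at an unadjusted p under 0.05, beside 9.61% and 11.9%.

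The table holds part of each library (sums of 9244968 to 15187939 counts). Library totals were therefore computed by dividing counts by FPKM for 43 non-coding genes that had 100 or more counts in every library (spread 0.230%). Deposited counts were tested with the quasi-likelihood test of edgeR 4.0.16 in R 4.3.3, using TMM factors of 0.788 to 1.27 on these totals, group means only and all 12 libraries in 1 fit, which share 1 estimate of the spread. It ran on 5723 genes, and a call is a Benjamini-Hochberg adjusted p under 0.05 over all of them. The fitted common coefficient of variation came to 21.2%. The SE is the absolute log2 fold change over the square root of the F statistic. Log2 fold changes use TMM factors, whereas FPKM uses library totals. Libraries of the same group differed beyond sampling noise, with a chi-square per degree of freedom of 10.2 to 213. The steps were tested on simulated data. Alternatives used DESeq2 1.42.0, limma 3.58.1 on log2 of the deposited FPKM plus 1 or 0.1, other scalings and filters, the replicate number as a block, and fewer libraries. No sequence of these genes was used here.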

Additional observations from a re-analysis of the deposited data

Results flagged for a closer look

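The change of the cultivar difference between the ages was called for 19 of the 54 tested H3 and H4 genes. For each gene below, the cultivar difference (mutant against wild type) was lower at 30 days than at 20 days by a test of that change itself, and the value is the change on the log2 scale. Of the 18 such genes named in the text, the H3.2 copies were TraesCS1D02G274300 (-2.62), TraesCS1B02G245200 (-1.90), TraesCS1A02G274300 (-1.73), TraesCS1B02G375900 (-1.70), TraesCS1B02G378600 (-1.61) and TraesCS1B02G245000 (-1.60). The H3 copies were TraesCS1A02G229000 (-1.79), TraesCS1A02G360200 (-1.70) and TraesCS1B02G376300 (-1.45), the last named after its values were seen. The H4 copies were TraesCS1A02G291500 (-2.47), TraesCS1B02G380200 (-1.92), TraesCS1A02G287800 (-1.91), TraesCS1B02G297200 (-1.74) and TraesCS1D02G286700 (-1.68). The TH011 copies were TraesCS1D02G081600 (-7.10, with 0 counts in HP30, so its size is not a bound), TraesCS1B02G301000 (-1.64), TraesCS1D02G204700 (-0.99) and TraesCS1A02G201300 (-0.52). Over the alternatives 7 of them kept their call throughout, namely TraesCS1A02G360200, TraesCS1D02G274300, TraesCS1A02G287800, TraesCS1D02G081600, TraesCS1B02G301000, TraesCS1B02G245000 and TraesCS1B02G375900.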

How the results depend on the processing

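The falls with age held best: over 1194 values of named genes and alternatives 1187 kept direction and call, 5 lost their call, and with equal FPKM totals TraesCS1A02G201300 and TraesCS1B02G300900 in wild type turned to 0.18 and 0.45. Genes called lower over time numbered 53 in wild type and 54 in the mutant, and 50 to 55 under the alternatives. The counts between cultivars were 131 of all tested genes and 0 histone genes at 20 days, 1312 and 9 at 30 days, and 1374 and 19 for the change of the difference. With library totals alone they were 1515 and 20, 3007 and 27, and 3355 and 44, and with equal FPKM totals 3435 and 47, 4559 and 44, and 4664 and 52. These scalings shift the median of all tested genes by construction (0.32 and 0.69 at 20 days, -0.51 and -1.14 at 30 days). With limma on log2(FPKM + 1) they were 1685 and 44, 3028 and 20, and 3488 and 50, and with 0.1 in place of 1 they were 1415 and 12, 3026 and 34, and 3375 and 45. DESeq2 gave 523 and 3 at 20 days and 18 histone genes at 30 days. Fitting the compared groups alone gave 2 genes at 20 days and 2 histone genes at 30 days (not defined for the change of the difference). An alternative chosen after seeing the data, without the 3 libraries rich in ribosomal RNA, gave 0 genes at 20 days, 5 histone genes at 30 days and 8 for the change. With FPKM of at least 5 required, 2110 and 1903 of all tested genes were called over time in wild type and mutant, since fewer were tested. With the replicate block 21 genes were called at 20 days and 9 histone genes at 30 days, and 17 for the change. Same-numbered libraries correlated by -0.151 to 0.322. With 3 libraries per group this cannot settle whether a number marks a shared plant or day, which the labels do not say. Leaving out 1 library at a time gave 11 to 414 genes at 20 days, with 0 histone genes throughout, 4 to 27 histone genes at 30 days and 10 to 31 for the change. Signs turned for TraesCS1A02G295400 in the change of the difference (0.19 as reported): -0.60 with library totals, -1.59 with equal FPKM totals, -0.83 and -1.06 with limma, and -0.87 to 0.90 over the fits without 1 library, 4 of them negative. At 30 days (0.79 as reported) it was -0.31 with equal FPKM totals, -0.10 with limma and 0.1, and -0.27 without HP30 replicate 2 to 1.5 over such fits. TraesCS1A02G361700 at 30 days (-0.11) was 0.013 without the libraries rich in ribosomal RNA and -2.63 to 0.41 over the fits without 1 library, 3 of them positive, and TraesCS1A02G201300 at 20 days (0.08) ranged from -0.016 without WT20 replicate 2 to 0.16. TraesCS1B02G300900 at 20 days (-0.13) was 0.20 with library totals, 0.61 with equal FPKM totals, 0.091 and 0.12 with limma, 0.074 without the libraries rich in ribosomal RNA and -0.43 to 0.023 over fits without 1 library. TraesCS1B02G301100 at 30 days (0.05) was -0.43, -1.06, -0.34 and -0.42 under the first 4 of these and -0.17 to 0.15 over fits without 1 library. Where no construction is named, the cause was not tested. Depth limits the 30-day values, which rest on a mean of 28.0 counts per histone gene in HP30.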
